A study of Mus musculus with 9 samples.

Results

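Pmepa1, Smad7, Ski, Skil, Tgif1, Id2 and Rgs16 are genes known to be induced or controlled by TGF-β, and they were followed here in regulatory T cells (Tregs) sorted from mouse tumours. They were taken by name, and all 7 were found by symbol among the 16409 genes of the normalized expression table, and all 7 passed the filter on low values used for testing. TGF-β is secreted in a latent form, which integrins such as αvβ8 can activate. The active cytokine binds a receptor kinase that phosphorylates SMAD2 and SMAD3, and these enter the nucleus with SMAD4 and act on target genes. Several of the genes switched on in this way damp the pathway in turn, so that their transcripts are often read as a measure of recent signalling. In Tregs, TGF-β is known for its roles in the expression of Foxp3 and of tissue-residence genes such as Itgae.

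The cells were CD4+ GFP+ Tregs of wild-type C57BL/6 mice carrying Lewis lung carcinoma (LLC), a transplantable mouse lung tumour line, and 9 pools of 3 to 4 mice each were sequenced in bulk. In the anti-β8 group (3 pools) the tumour cells expressed the integrin subunit β8 and the mice received the β8-blocking antibody C6D4 intraperitoneally in doses of 7 mg/kg, given 2 times weekly beginning on day 7, with harvest at day 14 (both counted from inoculation of the tumour). In the β8 isotype group (3 pools) the same β8-expressing tumours were grown in mice given a control antibody. In the Mock group (3 pools) the tumour cells were mock-transfected and the mice are labelled untreated, so β8 on the tumour and an injected antibody cannot be told apart in any comparison with Mock. The tumours that expressed β8 are a model in which the integrin was added to the cell line, and the pools hold several mice each, so values of single mice are not known.

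Several of these genes varied together over the libraries. The DNA before the start sites of some of them is shown with the motifs that SMADs recognise, and a link between the 2 was not tested. SMAD3 and SMAD4 are known to bind the motif CAGAC, a palindrome built from it that reads GTCTAGAC, and a GC-rich class of sites that includes the motif GGCGC as well as the related motif GGCCG. RefSeq promoters (build GRCm38.p6) were at hand for 4 of the 7 genes, Rgs16, Ski, Id2 and Tgif1, and Tgif1 has several start sites. The stretches below lie within the 250 bases before the start, leaving out bases in annotated exons, and capitals mark matches on either strand to CAGAC and to both of the GC-rich motifs, with overlapping matches counted each. Rgs16 is shown as a promoter with CAGAC, and Ski and Id2 as windows with GC-rich sites and no CAGAC. They run 5′ to 3′ on the gene's strand, at chr1:153740103-153740348 (+), chr4:155222593-155222785 (-) and chr12:25096254-25096342 (-). The Id2 window lies inside the annotated gene, which spans 25093799 to 25097140 on the minus strand. Of its 250 bases 161 are in annotated exons, so the Id2 stretch covers only bases 250 to 162 before the RefSeq start.
Rgs16: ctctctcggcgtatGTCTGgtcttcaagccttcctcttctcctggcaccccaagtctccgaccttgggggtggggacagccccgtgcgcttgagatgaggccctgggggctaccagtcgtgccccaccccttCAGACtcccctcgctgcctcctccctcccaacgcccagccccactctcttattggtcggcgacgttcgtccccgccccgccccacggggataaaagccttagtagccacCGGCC
Ski: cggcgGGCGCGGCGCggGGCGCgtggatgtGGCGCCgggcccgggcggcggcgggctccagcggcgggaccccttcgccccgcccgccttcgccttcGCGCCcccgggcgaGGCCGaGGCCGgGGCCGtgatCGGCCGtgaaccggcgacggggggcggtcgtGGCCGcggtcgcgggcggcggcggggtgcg
Id2: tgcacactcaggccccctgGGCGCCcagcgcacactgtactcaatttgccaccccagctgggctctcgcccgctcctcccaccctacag
The Rgs16 stretch holds 2 CAGAC matches, which begin 236 and 118 bases before the start, and 1 GGCCG match. The Ski stretch, with a GC content of 86.5%, holds 6 GGCGC and 6 GGCCG matches, and the Id2 stretch holds 2 GGCGC matches that overlap on opposite strands. GTCTAGAC was in none of the windows of these 4 genes, and Smad7 was not among them. Among 32851 promoter windows of that length, 42.2% hold CAGAC, 0.167% GTCTAGAC, 32.0% GGCGC and 30.4% GGCCG, so each match but the palindrome is common, and a match does not show that SMADs bind there.

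In anti-β8 pools 2 and 3, 9772 and 9283 genes reached 1 FPKM (fragments per kilobase, relative to the library's total), against 11785 in anti-β8 pool 1 and 11921 to 12177 in the other 6 libraries. These 2 pools stood apart: their log2 values correlated across genes at 0.841 to 0.873 with the other 7 libraries and at 0.816 with each other. Transcripts of the mitochondrial genome made up 0.842% and 0.822% of their FPKM, against 0.378% to 0.570% in the other 7. Foxp3, which marks Tregs, averaged 124 ± 6.73 FPKM in anti-β8, 95.3 ± 20.1 in β8 isotype and 101 ± 15.0 in Mock (SD, n = 3 pools each). Other Treg markers did not follow it: Ikzf2 measured 78.0, 29.5 and 18.8 FPKM in anti-β8, against 90.9 to 116 in β8 isotype and 47.5 to 60.8 in Mock, and Ctla4 measured 471 to 519, 598 to 854 and 373 to 558 FPKM in those groups. The tables hold no read totals, so depth was only roughly estimated. In genes with 1 transcript, values of FPKM times kilobases between 0.05 and 0.12 were read as 1 fragment. This gave about 10200000 to 12700000 fragments per library. The window was set beforehand and bounds the result, so the estimate is no measure of true depth or of its differences between libraries. If that depth holds, the members' values rest on roughly 433 fragments or more, apart from Ski in anti-β8 pool 3, with about 86.3.

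**Figure D1:**
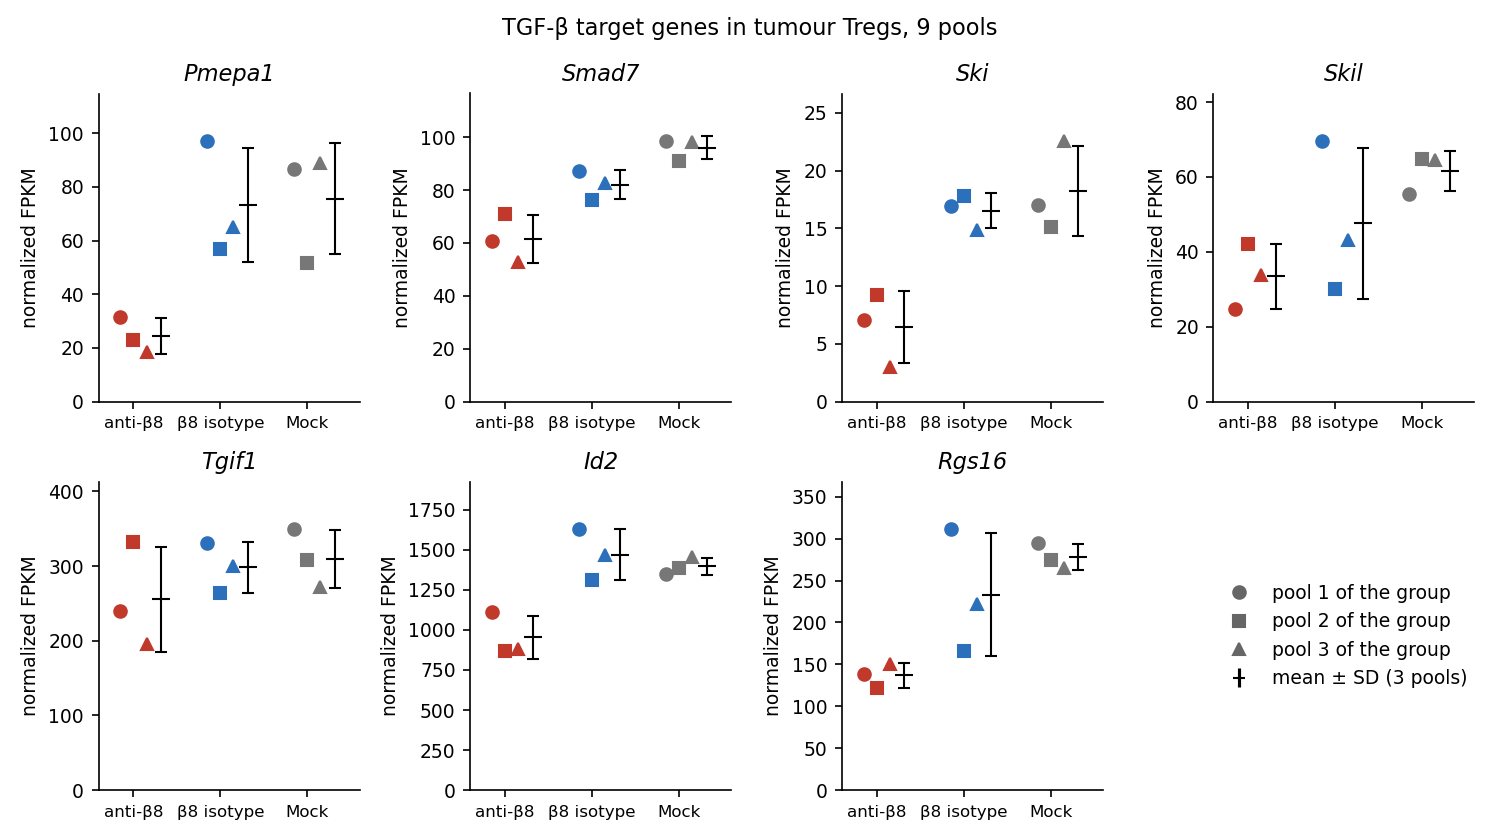
Normalized FPKM (vertical axes, from 0) of the 7 genes in each pool, by group from left to right: anti-β8, β8 isotype and Mock. Points are pools, with the pool number as the marker, and bars are the mean ± SD of 3 pools; the anti-β8 points of Pmepa1, Smad7, Ski, Id2 and Rgs16 lie below every β8 isotype point, and those of Skil and Tgif1 do not.

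The levels spanned a wide range. Averaged over the 9 libraries, Id2 stood at 1273 FPKM, Tgif1 at 288, Rgs16 at 216, Smad7 at 79.9, Pmepa1 at 57.8, Skil at 47.6 and Ski at 13.7. Across libraries Id2 never met Tgif1, Rgs16 never met Smad7 and Skil never met Ski, while Tgif1 overlapped Rgs16, Smad7 overlapped Pmepa1 and Pmepa1 overlapped Skil. Id2 was thus among the most abundant transcripts of these cells, at percentile 99.5 of the genes tested, and Ski was at percentile 59.7.

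Pmepa1 encodes a membrane protein that sequesters receptor-activated SMADs away from the receptor. It measured 31.7, 23.0 and 18.6 FPKM in anti-β8 pools 1 to 3, against 97.3, 57.0 and 65.1 in β8 isotype and 86.6, 51.7 and 88.9 in Mock. All 3 anti-β8 pools lay below all 6 others, and the anti-β8 mean was 33.4% of the β8 isotype mean, the smallest share among the 7 genes. The log2 difference was -1.54 ± 0.30 (SE) against β8 isotype and -1.58 ± 0.30 against Mock, which did not pass the threshold of 0.05 in limma (adjusted p = 0.222 and 0.0838). β8 isotype and Mock overlapped, with a difference of -0.045 ± 0.30 (95% interval -0.71 to 0.62).

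Smad7 encodes the inhibitory SMAD, which blocks the activated receptor and recruits ubiquitin ligases to it. It measured 60.9, 71.0 and 52.6 FPKM in anti-β8, 87.1, 76.3 and 82.8 in β8 isotype and 98.7, 91.0 and 98.3 in Mock. No group overlapped another, in the order anti-β8, β8 isotype, Mock from low to high. The steps were small beside those of Pmepa1: -0.42 ± 0.18 for anti-β8 against β8 isotype (limma adjusted p = 0.476), -0.64 ± 0.18 for anti-β8 against Mock (adjusted p = 0.187) and -0.22 ± 0.18 for β8 isotype against Mock (adjusted p = 1.00).

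Ski, Skil and Tgif1 encode nuclear proteins that join SMAD complexes and recruit corepressors to them; Ski and Skil (SnoN) are relatives, and Tgif1 is a homeodomain protein. Ski, the least abundant of the 7, measured 7.08, 9.24 and 3.04 FPKM in anti-β8, 17.0, 17.8 and 14.8 in β8 isotype and 17.0, 15.1 and 22.6 in Mock. The anti-β8 pools lay below all others, at 39.1% of the β8 isotype mean. The log2 difference was -1.33 ± 0.39 against β8 isotype (limma adjusted p = 0.389) and -1.45 ± 0.39 against Mock (adjusted p = 0.176). Pool 3, the lowest, stood at 1.38 FPKM before normalization, and without it the difference from β8 isotype was -0.94.

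Skil did not separate as Ski did. It measured 24.7, 42.0 and 33.7 FPKM in anti-β8, 69.7, 30.1 and 43.1 in β8 isotype and 55.5, 64.9 and 64.5 in Mock, so that β8 isotype pool 2 lay inside the anti-β8 range while every Mock pool lay above it. The log2 difference was -0.44 ± 0.31 from β8 isotype (limma adjusted p = 0.613). Its size turned on single pools: it was -0.13 without β8 isotype pool 1, -0.73 without β8 isotype pool 2 and -0.25 without anti-β8 pool 1 (adjusted p = 0.935, 0.753 and 0.701). From Mock it was -0.89 ± 0.31 (adjusted p = 0.267). Tgif1 measured 239, 333 and 195 FPKM in anti-β8, 331, 263 and 300 in β8 isotype and 350, 309 and 272 in Mock. Its groups overlapped in every comparison, and anti-β8 pool 2 was higher than all β8 isotype pools. The differences were -0.25 ± 0.19 from β8 isotype (adjusted p = 0.650; 95% interval -0.67 to 0.17) and -0.30 ± 0.19 from Mock (adjusted p = 0.507). Without anti-β8 pool 2 they were -0.46 and -0.51 (adjusted p = 0.409 and 0.195), and without anti-β8 pool 3 they were -0.074 and -0.13 (adjusted p = 0.883 and 0.776).

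Id2 encodes an inhibitor of DNA binding, which dimerises with E proteins and keeps them off DNA. It measured 1109.5, 867 and 880.3 FPKM in anti-β8, 1629, 1311.5 and 1467 in β8 isotype and 1351, 1386.5 and 1453 in Mock. The anti-β8 pools lay below all others, at 64.8% of the β8 isotype mean. In the main fit Id2 had the smallest p of the 7 genes against β8 isotype, rank 14 of 12555, with a log2 difference of -0.63 ± 0.12 (limma adjusted p = 0.177). Against Mock it was -0.56 ± 0.12 (adjusted p = 0.0929). With both pools of low detection left out, so that pool 1 alone stood for anti-β8, the differences were -0.40 and -0.33. The order by p against β8 isotype depended on the setting. With unnormalized values the unadjusted limma p was 0.00108 for Id2 and 0.000311 for Pmepa1. Without trend and robust settings it was 0.0204 for Id2 and 0.00154 for Pmepa1.

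Rgs16 encodes a GTPase-activating protein that shortens signalling through G-protein-coupled receptors, chemokine receptors among them. It measured 138, 122 and 151 FPKM in anti-β8, 311, 166 and 222 in β8 isotype and 295, 275 and 265 in Mock. The anti-β8 pools lay below all others, although β8 isotype pool 2 came close to them. The log2 difference was -0.72 ± 0.21 from β8 isotype (limma adjusted p = 0.381) and -1.02 ± 0.21 from Mock (adjusted p = 0.0904). Of its exonic bases 10.1% lie in an exon of the antisense gene Gm28513, and these libraries do not mark strand, so reads there cannot be assigned.

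In the GRCm38 annotation these are protein-coding genes on separate chromosomes. Pmepa1 (ENSMUSG00000038400) lies on chromosome 2 from 173224458 to 173276533, Skil (ENSMUSG00000027660) on chromosome 3 from 31095058 to 31122577, Ski (ENSMUSG00000029050) on chromosome 4 from 155154075 to 155222592, and Rgs16 (ENSMUSG00000026475) on chromosome 1 from 153740349 to 153745468. Id2 (ENSMUSG00000020644) lies on chromosome 12 from 25093799 to 25097140, Tgif1 (ENSMUSG00000047407) on chromosome 17 from 70844205 to 70853546, and Smad7 (ENSMUSG00000025880) on chromosome 18 from 75367529 to 75395935. The values are given per gene, so the transcripts of a gene cannot be told apart.

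Anti-β8 against β8 isotype asks what blocking the integrin changed in Tregs of β8-expressing tumours. All 7 genes had lower means in anti-β8, with a median log2 difference of -0.63, beside -0.036 over all 12555 genes tested. In limma 0 of 7 passed at an adjusted p under 0.05, a threshold passed by 0.0637% of all genes (8 genes). At an unadjusted p under 0.05, 5 of 7 were lower (Pmepa1, Ski, Rgs16, Id2 and Smad7), beside 6.2% of all genes. The same 5 genes had anti-β8 pools that all lay below all β8 isotype pools, beside 7.63% of all genes. The 7 genes were chosen with earlier results of these data known, so the counts here and below are no independent test of them. With anti-β8 pool 1 alone, the anti-β8 library whose number of detected genes was nearest to the other groups, all 7 genes lay below all 3 β8 isotype pools, beside 25.0% of all genes, and this count was chosen after the values were seen. The log2 differences for that pool ran from -1.14 for Pmepa1 to -0.31 for Tgif1, with -0.84 for Skil. Without it, on anti-β8 pools 2 and 3 alone, Pmepa1 (-1.74) and Id2 (-0.74) passed, with adjusted p of 0.0443 and 0.0281, among 142 genes that passed. In bulk RNA, fewer cells that express a gene and less RNA per cell cannot be told apart.

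Anti-β8 against Mock sets Tregs of treated β8-expressing tumours beside those of tumours to which β8 was not added. It shares the anti-β8 pools with the comparison above, so the values of both stand side by side and do not support each other. The 7 genes were again lower in anti-β8, with a median of -0.89 beside -0.025 over all genes. In limma 0 of 7 passed, beside 0.183% of all genes (23 genes), and the smallest adjusted p was 0.0838 for Pmepa1. At an unadjusted p under 0.05, 6 of 7 were lower (all but Tgif1), beside 7.87% of all genes, and the same 6 did not overlap, beside 8.4%. Anti-β8 pool 1 alone lay below all 3 Mock pools in 7 of 7 genes, beside 24.8% of all genes. Without that pool Pmepa1 (-1.78) and Id2 (-0.68) passed, with adjusted p of 0.0299 and 0.0230, among 323 genes.

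β8 isotype against Mock asks what β8 on the tumour, together with an injected control antibody, changed in the Tregs. The median log2 difference of the 7 genes was -0.12, or -0.27 to -0.062 with 1 pool left out, beside 0.0087 over all genes. In limma 0 of 7 passed, beside 0.00796% of all genes (1 gene), and 0 of 7 had an unadjusted p under 0.05 with a lower or a higher value, beside 2.58% of all genes that were lower and 2.99% that were higher. Smad7 was the 1 gene whose pools did not overlap, lower in β8 isotype, beside 8.47% of all genes. The other differences were -0.44 ± 0.31 for Skil, -0.30 ± 0.21 for Rgs16, -0.12 ± 0.39 for Ski, -0.054 ± 0.19 for Tgif1 and 0.068 ± 0.12 for Id2. Without β8 isotype pool 1, Skil (-0.75) and Rgs16 (-0.53) had unadjusted p under 0.05 (limma adjusted p = 1.00 and 0.853), and without β8 isotype pool 2 they stood at -0.16 and -0.081. The sign of the Id2 difference turned with the unnormalized values (-0.12) and that of Pmepa1 with the values scaled to a common sum (0.023). The intervals were not narrow enough to show equal levels; that of Id2 ran from -0.19 to 0.32 and that of Ski from -0.97 to 0.73.

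**Figure D2:**
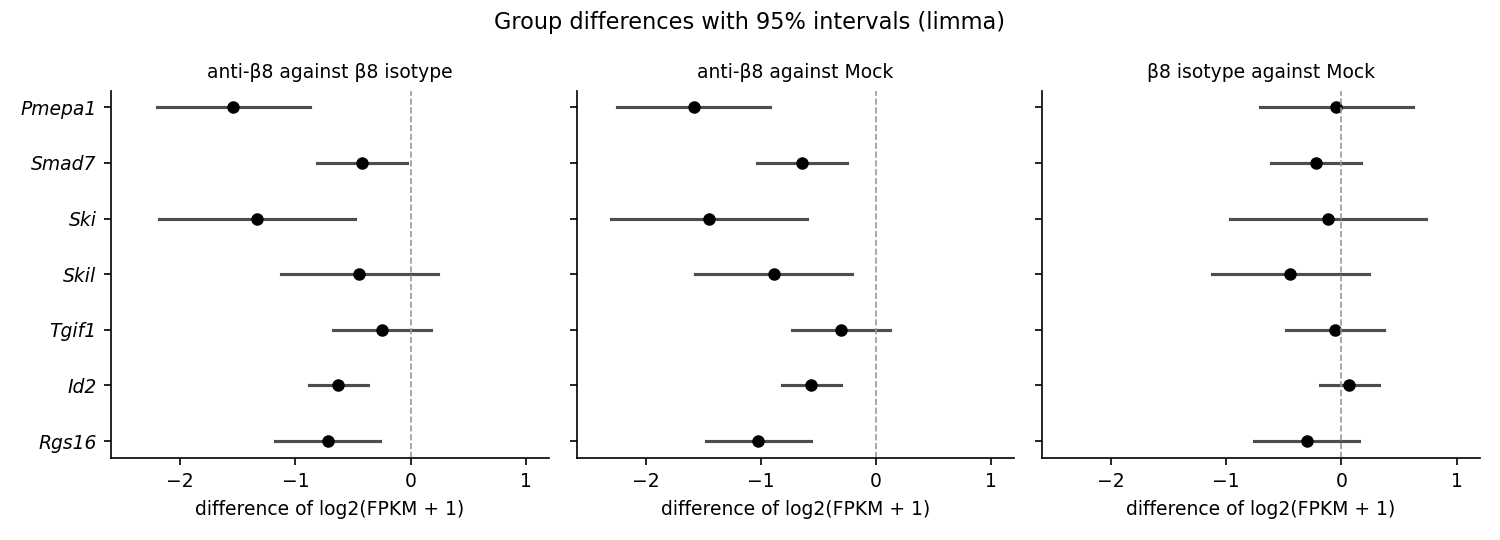
Log2 differences of FPKM + 1 (horizontal axes) of the 7 genes, as points with 95% intervals from limma, in anti-β8 against β8 isotype, anti-β8 against Mock and β8 isotype against Mock. In both anti-β8 panels all points lie below 0, from -1.54 to -0.25 and from -1.58 to -0.30, while in β8 isotype against Mock every interval crosses 0.

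**Figure D3:**
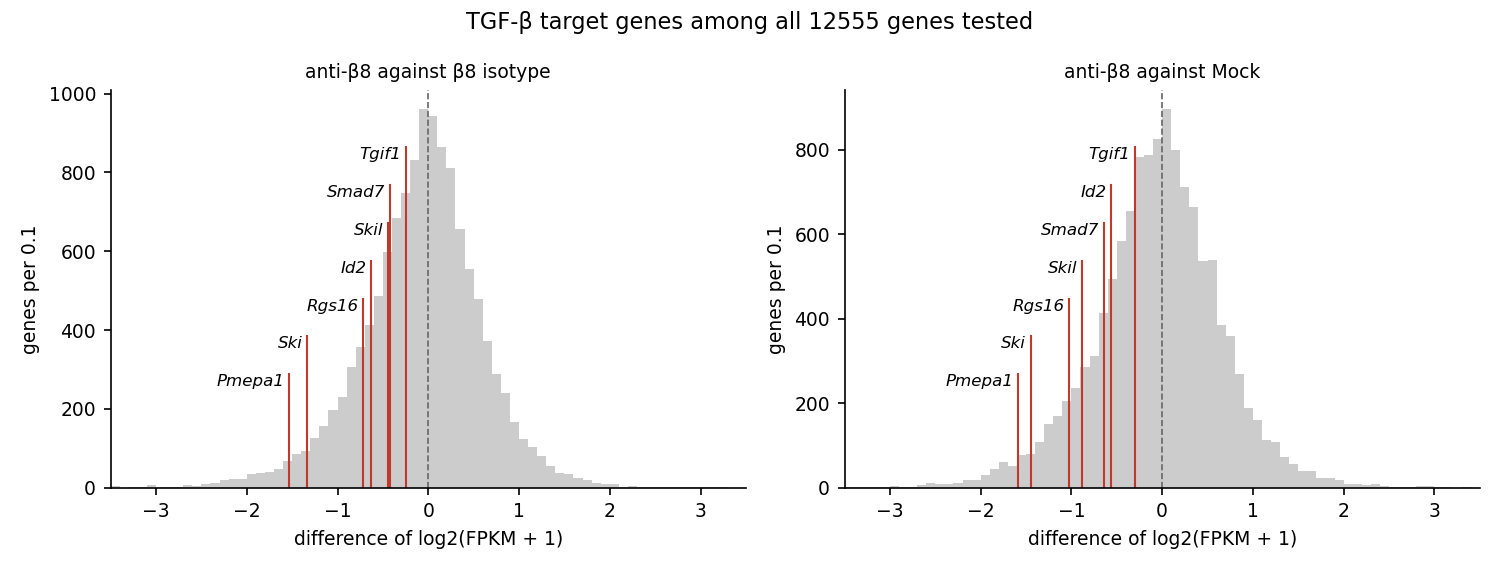
Histograms of the log2 differences of all 12555 genes tested (vertical axes, genes per 0.1 units), with red lines at the 7 genes, for anti-β8 against β8 isotype and against Mock. Pmepa1 and Ski lie at percentiles 2.65 and 4.05 of all genes against β8 isotype, and Tgif1 at percentile 35.5.

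The members also varied within groups. In β8 isotype, pool 1 was the highest and pool 2 the lowest for 6 of the 7 genes, all but Ski, an order found in 19.0% of all genes and noticed after the values were seen. Each gene's log2 values were put on a scale of SDs from its mean over the 9 libraries and averaged over the 7 genes. That mean level was -0.99, -0.65 and -1.54 in anti-β8 pools 1 to 3, against 0.93, -0.16 and 0.31 in β8 isotype and 0.80, 0.55 and 0.74 in Mock. Anti-β8 was therefore below the other groups in each pool, with anti-β8 pool 2 and β8 isotype pool 2 nearest to each other. Over the 21 pairs of members, deviations from the group means in the 9 libraries correlated at a median Pearson's r of 0.473, and the range was -0.336 (Ski and Rgs16) to 0.883 (Smad7 and Tgif1). These r are descriptions: the points share their libraries and the normalization.

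**Figure D4:**
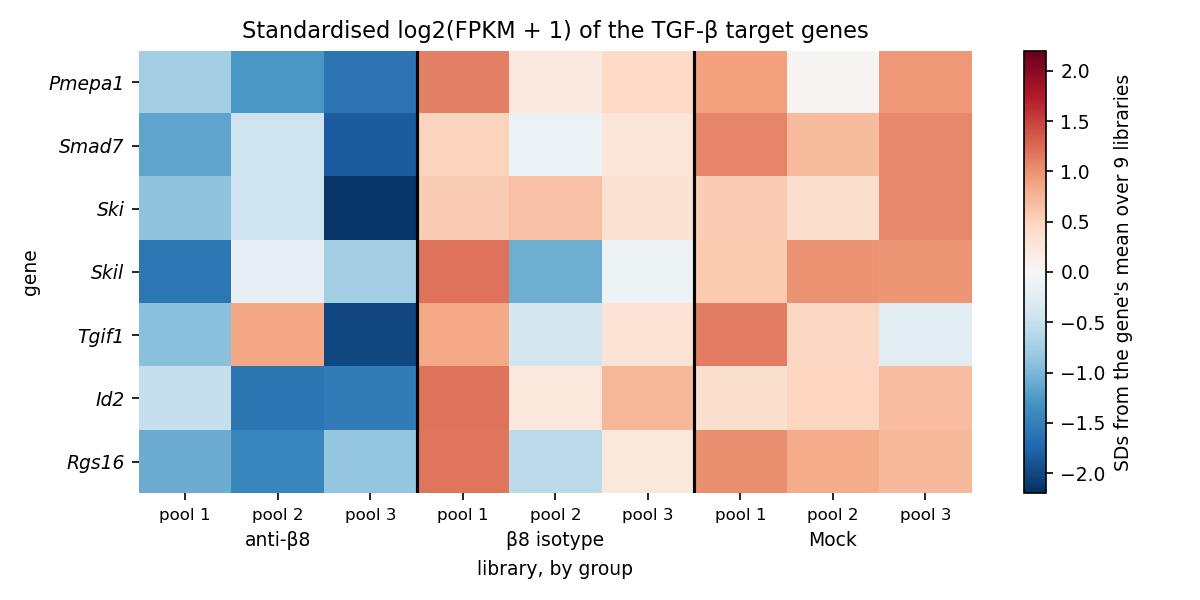
Log2(FPKM + 1) of the 7 genes (rows) in the 9 libraries (columns, anti-β8, β8 isotype and Mock from left to right), each gene in SDs from its own mean over the libraries; red is above and blue below that mean. Anti-β8 pool 3 is blue for all 7 genes, anti-β8 pool 2 is red for Tgif1, and β8 isotype pool 1 is red for all 7.

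Among 7041 genes with a mean of at least 5 FPKM, the patterns most like the mean of the 7 over the 9 libraries were those of Samsn1 (Pearson's r of 0.979), Itgav (0.963), Rgs1 (0.957), Dock10 (0.955), Ifrd1 (0.955), Rsrp1, Ubash3b (both 0.948) and Jun (0.947). Itgav encodes the αv chain that pairs with β8. It measured 212, 223 and 141 FPKM in anti-β8, against 362, 284 and 328 in β8 isotype and 378, 293 and 343 in Mock, with no overlap of anti-β8 and the other groups (log2 difference from β8 isotype -0.78 ± 0.19, limma adjusted p = 0.351). The most opposite patterns were those of Rsl24d1 (-0.943), Blvrb (-0.937), Clns1a (-0.934) and Ccdc124 (-0.929). With Pmepa1 alone the closest were Stab1 (0.975), Ubash3b (0.972), Jun (0.961), Naa50 (0.959) and Rapgef6 (0.952). Stab1 encodes a scavenger receptor known from macrophages and sinusoidal endothelium, and it averaged 8.60 FPKM in anti-β8, 31.8 in β8 isotype and 40.9 in Mock. It was not on the myeloid list. These genes were picked for their likeness over 9 libraries in 3 groups, so the r carry the group differences and are given with no test.

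Other inhibitors of the SMAD pathway had differences in both directions. Of 12 listed genes 11 were tested, with a median log2 difference of -0.16 against β8 isotype. In limma 0 passed and 0 had an unadjusted p under 0.05, beside 6.2% of all genes lower and 3.97% higher at that p. The smallest p were those of the ubiquitin ligase Nedd4l (-1.52 ± 0.72), of Ldlrad4 (-1.08 ± 0.59), a relative of Pmepa1, and of the SMAD phosphatase Ppm1a (0.34 ± 0.26). Nedd4l stood at 6.52, 0 and 0.0385 FPKM in anti-β8 before normalization, which raises such low values, so its fitted difference gives no size of change. Ldlrad4 averaged 10.8 FPKM in anti-β8, 17.5 in β8 isotype and 28.6 in Mock, and lay below all Mock pools (-1.75 ± 0.59, adjusted p = 0.258). Tgif2, the relative of Tgif1, averaged 4.55 FPKM in anti-β8 and 7.18 in β8 isotype, with overlap, and Smad6, the other inhibitory SMAD, was listed at 0 in all 3 anti-β8 pools and too low elsewhere to be tested.

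Other genes that TGF-β induces in T cells or elsewhere numbered 20, of which 19 were tested. Against β8 isotype 15 of them had a lower mean in anti-β8, beside 52.9% of all genes, with a median of -0.31. At an unadjusted p under 0.05, 5 were lower and 0 higher, beside 6.2% and 3.97% of all genes, and 0 passed. The smallest p belonged to Gpr15, a homing receptor, Fut7, an enzyme that makes selectin ligands, and Ccr8, a chemokine receptor of tumour Tregs. Ccr8 measured 366, 438 and 313 FPKM in anti-β8 and 607, 480 and 538 in β8 isotype (-0.55 ± 0.16, limma adjusted p = 0.390), but 397, 475 and 353 in Mock, so that anti-β8 overlapped Mock. Gpr15 was listed before normalization at 0.918, 0 and 0 FPKM in anti-β8 and at 4.00, 3.69 and 5.33 in β8 isotype, and Fut7 was likewise at 0 in anti-β8 pools 2 and 3. Normalization puts small values in place of these zeros, so the fitted differences (-1.91 ± 0.42 for Gpr15, adjusted p = 0.316) give no size of change. The other 2 of the 5, named after their values were seen, were Nt5e (-2.01 ± 0.62) and Itgae (-1.75 ± 0.56), which encode the ectoenzyme CD73 and the integrin chain CD103. Nt5e stood at 0.0211 FPKM in anti-β8 pool 2 before normalization and at 0.866 after it, so the size of its difference depends on that step. Junb, Cdkn1a and Bhlhe40, abundant members of the list, differed by -0.016 ± 0.083, 0.057 ± 0.21 and -0.12 ± 0.15.

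Ligands, receptors and SMADs had 10 of 12 genes tested and a median of -0.38. At an unadjusted p under 0.05 the list had 1 gene, Itgav, which was lower, a share of 10% beside 6.2% of all genes. Next by p came Lrrc32 (-0.82 ± 0.39), which encodes the carrier of latent TGF-β on Tregs, and Tgfb1 (-0.41 ± 0.24). Genes that TGF-β is known to lower in T cells had 10 of 12 tested and went both ways, and 0 passed. At an unadjusted p under 0.05, 1 was lower and 2 were higher, beside 6.2% and 3.97% of all genes. The killing ligand Fasl, at 0 in anti-β8 pools 2 and 3 before normalization, was lower (-1.89 ± 0.55). The receptor Klrg1 (0.43 ± 0.16) and the transcription factor Eomes (1.06 ± 0.47) were higher. Eomes stood at 1.59, 1.10 and 5.43 FPKM in anti-β8 against 0.769, 0.279 and 0.716 in β8 isotype, levels near the filter. Before normalization it stood at 1.83, 0.113 and 4.07 FPKM against 0.995, 0.416 and 1.01. There anti-β8 pool 2 lay below all β8 isotype pools, so the separation rests on the normalization.

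**Figure D5:**
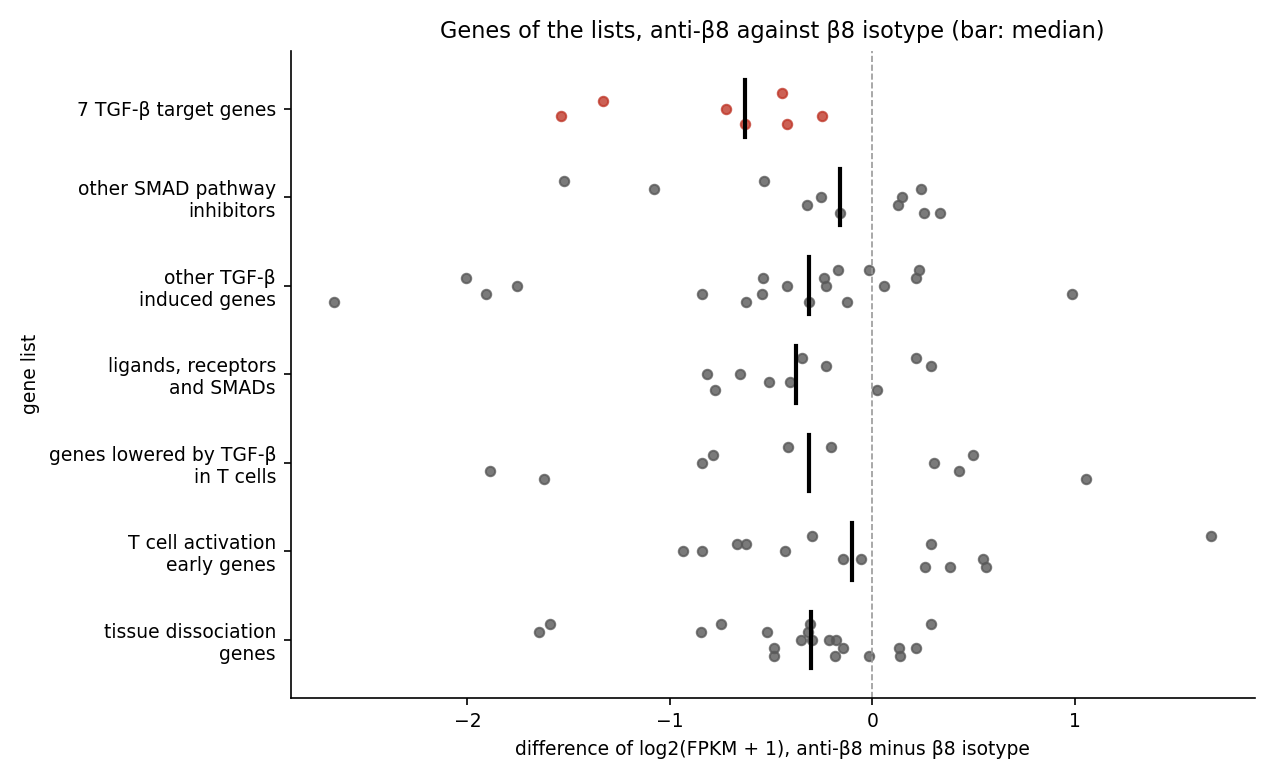
Log2 differences of FPKM + 1, anti-β8 minus β8 isotype (horizontal axis), of the genes in 7 lists (rows); points are genes, the black bar is the list's median. The 7 TGF-β target genes, in red, have a median of -0.63 and all lie below 0, while the other 6 lists have medians from -0.38 to -0.098 with genes on both sides of 0.

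The relatives of Id2 and Rgs16 differed among themselves. Id3, at 39.4, 24.7 and 76.7 FPKM in anti-β8, overlapped both other groups, and Id1 averaged 6.55 FPKM in anti-β8, 9.80 in β8 isotype and 16.1 in Mock. Tcf3, Tcf4 and Tcf12 encode E proteins, the partners that Id2 binds. Their means were higher in anti-β8 than in β8 isotype by 0.41 ± 0.25, 0.83 ± 0.57 and 0.89 ± 0.48. At an unadjusted p under 0.05, 0 of 3 were higher, beside 3.97% of all genes. Against Mock 3 of 3 were higher at that p, beside 6.09% of all genes, led by Tcf4 (2.01 ± 0.57), and 0 passed in limma (smallest adjusted p = 0.197). The highest levels lay in the pools of low detection: Tcf4 measured 46.5 and 31.6 FPKM in anti-β8 pools 2 and 3, against 7.46 in anti-β8 pool 1, 8.76 to 17.3 in β8 isotype and 3.93 to 6.15 in Mock. In the Rgs family 7 of 8 genes were tested, with a median of -0.61 against β8 isotype. At an unadjusted p under 0.05, 4 were lower, beside 6.2% of all genes, and 0 passed. The 4 were Rgs16 itself, Rgs2 (-0.76 ± 0.22), Rgs10 (-0.61 ± 0.19) and Rgs1 (-0.61 ± 0.21).

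Genes induced by tissue dissociation, 20 of 20 tested, summed to 7998 to 8332 FPKM in anti-β8, against 8596 to 9791 in β8 isotype and 8657 to 9357 in Mock, so that anti-β8 lay below both other groups. Of these 5 were lower than in β8 isotype at an unadjusted p under 0.05, beside 6.2% of all genes. The smallest p were those of Hspa1a (-1.65 ± 0.36), Hspa1b (-1.59 ± 0.36) and Jun (-0.75 ± 0.18). Early genes of T cell activation, 14 of 14 tested, went both ways, with a median of -0.098. At an unadjusted p under 0.05, 3 were lower and 2 higher, beside 6.2% and 3.97% of all genes. In limma 1 of them, the NF-κB inhibitor Nfkbia, passed (-0.62 ± 0.087, adjusted p = 0.0408), beside 0.0637% of all genes. The activation and dissociation lists share Egr1 and Nr4a1, and Junb is on both the dissociation list and that of other TGF-β-induced genes. Transcripts of the mitochondrial genome, 12 of 13 tested, had 12 of 12 differences above 0 and a median of 0.65. At an unadjusted p under 0.05, 6 were higher, beside 3.97% of all genes. The 1 that passed, mt-Atp8 (limma adjusted p = 0.0497), stood before normalization at 4.27, 2.34 and 2.78 FPKM in anti-β8 and at 0 in the other 6 libraries. It met the filter through anti-β8 alone, so its p is not read as a result. The part of dissociation, activation and mitochondrial transcripts in the members' differences was not tested.

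Markers of other cells that a CD4+ GFP+ sort could hold were measured in each group, with zeros read from the unnormalized table. Each sum takes all listed genes that have normalized values, tested or not. In anti-β8 pools 2 and 3 it includes the small values that normalization puts in place of zeros. Fibroblast markers, 3 of 7 tested, summed to 18.3 to 67.6 FPKM in anti-β8, 46.2 to 152 in β8 isotype and 6.17 to 9.63 in Mock; Pdgfra was at 0 in anti-β8, and Pdgfra and Pdgfrb were at 0 in Mock. Tumour and epithelial markers, 6 of 8 tested, summed to 31.4 to 168, 57.3 to 133 and 41.4 to 61.2 FPKM in anti-β8, β8 isotype and Mock, with Krt19 at 0 in β8 isotype and Mock. Myeloid markers, 8 of 11 tested, summed to 432 to 759, 220 to 806 and 298 to 599 in those groups, with S100a8 and S100a9 at 0 in anti-β8. B and plasma cell markers, 6 of 6 tested, summed to 108 to 181, 31.6 to 125 and 19.6 to 65.6, and CD8 and NK cell markers, 4 of 6 tested, to 40.8 to 56.0, 22.7 to 43.8 and 19.9 to 30.8, with Klra8 at 0 in anti-β8 and Mock. Endothelial sums lay between 10.4 and 16.8 in all groups, and erythroid and platelet sums were 0.468 to 123, 30.1 to 40.2 and 61.4 to 327. In anti-β8 pool 3 Hba-a1, Hba-a2, Hbb-bs, Hbb-bt and Pf4 were at 0 before normalization, so the 0.468 holds only values put in place of zeros. The Treg markers, 6 of 6 tested, summed to 1458 to 1729, 1634 to 1999 and 1327 to 1475 FPKM, so that anti-β8 overlapped both other groups. Against β8 isotype, however, 2 of the 6 were lower at an unadjusted p under 0.05, beside 6.2% of all genes. They were Ikzf2 (-1.50 ± 0.40, limma adjusted p = 0.379) and Ctla4 (-0.50 ± 0.17, adjusted p = 0.427). Both were lower without overlap, beside 7.63% of all genes, and the median over the 6 was -0.24. Foxp3 lay the other way, higher without overlap (0.40 ± 0.20, adjusted p = 0.509). The part of these cells, and of the Treg markers, in the members' differences was not tested.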

How the data were processed

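Tregs from 9 tumour pools were sequenced after SMART-Seq v4 Ultra cDNA synthesis and Nextera XT library preparation, per the labels' protocols, without molecular identifiers or strand marking. The authors deposited FPKM per gene, once unnormalized (53251 rows) and once normalized (16409 rows); tools in the submitters' processing notes are STAR 2.6.1a, RSEM 1.3.1, Cufflinks, Picard and Trim Galore 0.5.0, with GRCm38 as the build, and no source used here says which of them computed the FPKM. The normalized table is limited to genes with a maximum above 1 FPKM, and its sorted highest 1000 values differ by at most 0.0907% between libraries, as after quantile normalization, a step that sets every library to 1 distribution and gives genes at 0 a small value in anti-β8 pools 2 and 3. It has no symbols, so these were joined by Ensembl identifier from the other table; 1 row of that table with shifted cells was left out. Coordinates come from GENCODE M21, in which 99.6% of the identifiers were found.

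Genes with at least 1 FPKM in at least 3 of 9 libraries were kept (12555) and log2(FPKM + 1) was fitted in limma 3.58.1 (R 4.3.3) with the 3 group means, all 9 libraries, and trend and robust settings. Tests were two-sided and adjusted by Benjamini-Hochberg over all genes kept, at 0.05; differences on this scale understate changes of low genes. The fit was tested on simulated data. Tables and figures were made in Python 3.11.15. No count model was applied, since FPKM lack counts, and depth was only estimated.

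Each p-value rests on the spread between pools of mice. The pool numbers 1 to 3 recur in each group, but same-numbered pools did not deviate together (r of -0.0398 to 0.0461 over 9 pairs), so no block was used. All members are named, and from each other list the 3 genes of smallest p against β8 isotype, all genes that passed, and the relatives of the members. The members and lists were chosen with earlier results of these data known. Alternatives were another pseudocount, other filters, the unnormalized values as they stand and scaled to a common sum, only the 6 libraries compared, a replicate block, array weights, no trend or robust settings, and leaving out pools; counts of separated genes with anti-β8 pool 1 alone and in the unnormalized table were added after seeing the data.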

Additional observations from a re-analysis of the deposited data

How the results depend on the processing

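The 7 genes were lower in anti-β8 in both comparisons under every alternative, and 0 of 7 passed under each but 1: without anti-β8 pool 1, 2 genes passed (Pmepa1 and Id2, the range over pools left out in turn being 0 to 2 in both comparisons). Leaving out 1 pool at a time moved the median of the 7 between -0.73 and -0.49 against β8 isotype, between -0.96 and -0.69 for anti-β8 against Mock, and between -0.27 and -0.062 for β8 isotype against Mock. In the unnormalized table the groups did not overlap for the same numbers of members, 5 and 6. The number of genes passing against β8 isotype, 8, was 3 with a pseudocount of 0.1, 2 with unnormalized values, 5 with values scaled to a common sum, 3 with only the 6 libraries compared, 2 with a replicate block, 3 without trend and robust settings and 2 to 142 with 1 pool left out. For β8 isotype against Mock, 1 became 29 with 6 libraries, 2 with the block, 111 with array weights, 0 without trend and robust settings, 30 without anti-β8 pools 2 and 3, and 1 to 2 with 1 pool left out. Against Mock, the 23 of anti-β8 became 15 with no filter, 15 with the block, 14 with array weights, 13 without trend and robust settings and 9 to 323 with 1 pool left out. The replicate block changed no member's call. Unnormalized and scaled values shifted the median of all genes in anti-β8 against β8 isotype to -0.20 and -0.27, beside -0.48 and -0.52 for the members. In β8 isotype against Mock the sign turned for Id2 with unnormalized (-0.12) and scaled values (-0.084), for Pmepa1 with scaled values (0.023), and with 1 pool left out for Id2 (-0.0097 to 0.15), Pmepa1 (-0.30 to 0.11), Ski (-0.24 to 0.039) and Tgif1 (-0.14 to 0.036). The cause was not tested. By the rough estimate of depth, Ski in anti-β8 pool 3 rests on the fewest fragments.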
